A study of Mus musculus with 22 samples.

Results

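Interferon-inducible genes were followed through the choroid plexus (ChP) of mice from 2 models that target the homeoprotein OTX2. The group holds 50 genes chosen by name, without a test of induction by interferon, as targets, sensors, signal carriers and receptors of the interferon response. Of these, 49 were found among the 33964 genes of the count tables, and *Gbp6* was not analysed here. In the pools labelled Cre-Tat, 14 of 44 tested members were higher than in vehicle pools in the lateral ventricle (LV) ChP and 13 of 44 in the fourth ventricle (4V) ChP, and no tested member was lower in either. Of all genes tested, 2.21% were higher and 1.03% lower in LV, and 5.7% were higher and 4.99% lower in 4V. The members that rose were mainly interferon-induced GTPases. The receptors, the interferon regulatory factors and those nucleic acid sensors among the members that could be tested did not pass.

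Interferons are secreted proteins that cells release when they sense foreign nucleic acid or, in the case of interferon gamma, that T and NK cells release. Type I interferons bind the receptor made of IFNAR1 and IFNAR2, and interferon gamma binds IFNGR1 with IFNGR2. Both receptors act through JAK kinases on STAT proteins: type I signalling builds a complex that holds STAT2 and IRF9 and binds the interferon-stimulated response element, whereas interferon gamma builds STAT dimers that bind the gamma-activated site. The ChP forms the barrier between blood and cerebrospinal fluid, its epithelium carries these receptors, and resident macrophages lie in its stroma and on its surface.

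The conditional model used mice homozygous for a floxed *Otx2* (*Otx2 lox/lox*, strain S129), 3 months old, that received an intracerebroventricular injection of Cre-Tat, a cell-permeable recombinase protein, or of vehicle, and that were taken 15 days later. Every mouse of this model carries *Otx2 lox/lox*, vehicle mice included, so that pools labelled Cre-Tat and vehicle differ in the injected protein as well as in the recombination of *Otx2*, and these cannot be told apart. LV and 4V ChP were dissected separately and pooled from 5 mice for each pool labelled Cre-Tat and from 4 mice for each vehicle pool. The constitutive model (strain B6D2) gave 4V ChP of 3-month-old *Otx2+/-* mice, in which GFP replaces an allele, and of wildtype littermates, and also 4V ChP of *Otx2+/AA* mice, for which the labels give no age. Each of the 7 groups held 2 pools, A and B, which gave 14 pools, and p-values measure the spread between these pools. The models were sequenced in separate runs, so strain, model and run cannot be told apart, and values are compared within a run.

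Total counts per pool were 22750019 to 50088408, and the values below are normalised counts, which divide each count by a library size scaled with TMM within its run. Of the 16 conditional files, 14 carry a library number that belongs to another sample than the one holding them, and the joining used this number. The runs of a pool then differed by sampling noise (chi-square 1.0 to 1.041 times its degrees of freedom, against 21.09 to 37.31 as attached). *Otx2* went against the label: it was 23232 and 19259 in the LV pools labelled Cre-Tat against 7244 and 8824 in vehicle, and 22589 and 22964 against 7250 and 7392 in 4V. It was likewise 20048 and 17235 in *Otx2+/-* against 6993 and 5928 in wildtype, while *Otx2+/AA* gave 6603 and 6904. The files hold counts over whole transcripts, and the floxed exon could not be counted apart. The groups are therefore called by their labels. Scaling by total counts in place of TMM shifted the median over all genes (log2 fold change) by more than 0.1 in 5 fits: to 0.174 in LV (396 genes higher and 48 lower, against 331 and 155), 0.147 in 4V (1321 and 426, against 828 and 726), 0.114 for *Otx2+/AA* (28 and 10, against 25 and 25), -0.185 between ventricles (252 and 1226, against 508 and 582) and 0.123 for the interaction of label and model (166 and 93, against 120 and 127). It turned the direction of no member called.

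The regulatory sequence at these genes is shown first, because the response is read through short DNA elements close to the start sites. RefSeq promoters (250 bases before to 50 after the start, GRCm38.p6) were found for 37 of the 50 members. They were searched on both strands for a pair of GAAA copies separated by any 2 bases, the core of the interferon-stimulated response element, and for TTCNNNGAA, the palindrome of the gamma-activated site; the searches can overlap. The GAAA pair was present in 21 of the 37 members (56.8%) and in 3.99% of the 27025 genes with a promoter. TTCNNNGAA was present in 15 members (40.5%) and in 9.55% of all genes. Among the members that rose in a ventricle with the Cre-Tat label, 12 of 16 had a promoter, of which 9 held the GAAA pair, 5 held TTCNNNGAA, 4 held both, and *Ifitm10* and *Ifi30* held neither. Among the other members, 25 of 34 had a promoter, of which 12 held the GAAA pair, 10 held TTCNNNGAA, 5 held both and 8 held neither. The stretches below run 5′ to 3′ on the strand of the gene, with the matches in capitals. A pair of TTTC copies is the GAAA pair read on the other strand. The first set are guanylate-binding protein genes that rose.
Gbp2 (chr3:142620574-142620643, plus strand): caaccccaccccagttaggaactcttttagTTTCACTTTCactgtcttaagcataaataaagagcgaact
Gbp2b (chr3:142594680-142594749, plus strand): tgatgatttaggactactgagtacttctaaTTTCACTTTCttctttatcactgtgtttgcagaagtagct
Gbp3 (chr3:142559969-142560044, plus strand): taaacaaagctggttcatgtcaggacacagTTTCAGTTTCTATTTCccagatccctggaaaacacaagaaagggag
Gbp7 (chr3:142530200-142530322, plus strand): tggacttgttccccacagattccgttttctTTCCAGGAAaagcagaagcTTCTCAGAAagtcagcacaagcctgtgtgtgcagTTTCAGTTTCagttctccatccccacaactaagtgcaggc
Each holds the GAAA pair in its reverse orientation, at -59 bases from the start in *Gbp2*, -137 in *Gbp2b* and -53 in *Gbp7*, where it follows 2 copies of TTCNNNGAA. *Gbp3* holds 2 overlapping pairs, the first at -45.

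The immunity-related GTPase genes are shown next, because the promoters of *Igtp*, *Irgm2* and *Tgtp1* share an arrangement that *Irgm1* lacks.
Igtp (chr11:58199481-58199561, plus strand): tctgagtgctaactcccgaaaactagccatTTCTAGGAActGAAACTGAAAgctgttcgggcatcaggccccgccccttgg
Irgm2 (chr11:58214872-58214952, plus strand): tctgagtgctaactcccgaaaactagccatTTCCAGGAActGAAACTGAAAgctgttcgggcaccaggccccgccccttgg
Tgtp1 (chr11:48992284-48992364, minus strand): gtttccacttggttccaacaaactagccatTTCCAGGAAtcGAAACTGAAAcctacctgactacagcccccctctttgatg
Irgm1 (chr11:48871405-48871480, minus strand): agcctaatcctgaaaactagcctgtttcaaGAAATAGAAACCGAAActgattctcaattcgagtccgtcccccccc
In *Igtp*, *Irgm2* and *Tgtp1*, TTCNNNGAA is followed by a GAAA pair 11 bases on, at -45, -75 and -88 bases from the start. The 81 bases of *Igtp* and *Irgm2* shown are identical at 79 positions (97.5%), whereas *Tgtp1* matches *Igtp* at 44 of the 81 (54.3%). *Irgm1* holds 2 overlapping GAAA pairs and no TTCNNNGAA. In LV with the Cre-Tat label *Igtp*, *Irgm2* and *Irgm1* rose and *Tgtp1* did not pass the test (values below).

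The last pair are classical targets of type I interferon with repeated matches, of which *Ifit1* rose in both ventricles and *Isg15* had too few counts to be tested.
Ifit1 (chr19:34640755-34640843, plus strand): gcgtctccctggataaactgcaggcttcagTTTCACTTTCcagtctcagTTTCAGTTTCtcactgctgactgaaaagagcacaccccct
Isg15 (chr4:156200845-156200926, minus strand): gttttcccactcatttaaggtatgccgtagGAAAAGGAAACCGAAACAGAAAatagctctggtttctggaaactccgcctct
*Isg15* holds 3 overlapping GAAA pairs, the most of any member promoter, and *Ifit1* holds 2 separate ones. A match is a description of the letters and not a measured binding site.

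With the Cre-Tat label, the 44 tested members had a median log2 fold change of 0.48 in LV and 0.54 in 4V, against 0.00437 and 0.00601 over all genes tested. In LV, 14 members (31.8% of those tested) were higher at an adjusted p under 0.05, where 2.21% of all genes were higher and 1.03% lower (3.24% in either direction). In 4V, 13 members (29.5%) were higher, where 5.7% of all genes were higher and 4.99% lower (10.7% in either direction). At an unadjusted p under 0.05 (edgeR) the counts were 22 and 25 members, where 2124 of 14990 genes in LV and 3227 of 14537 in 4V were. Both pools labelled Cre-Tat lay above both vehicle pools for 27 members in LV (22.0% of all genes) and 26 in 4V (25.5%), and below both for 1 (20.3%) and 3 (24.9%). The remaining 5 members, *Zbp1*, *Mx1*, *Oas1a*, *Oas2* and *Isg15*, did not pass the filter on low counts in either ventricle; a member that passes through its high group alone had to differ, so these shares describe the members and are no test of them. The count of LV depended on single pools and fell most without vehicle pool A, where the count of all genes higher was also the lowest. In 4V the counts of members and of all genes changed with the pool left out as well.

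The calls of the conditional model also depend on the join of files to samples. With the files as attached, 22 members were higher and 2 lower in LV, and 23 and 7 in 4V. Calls over all genes rose as well under that join. In LV 3388 of 14943 genes were higher and 3317 lower, and in 4V 4360 of 14845 were higher and 4381 lower. Of the 31 calls reported below for LV, 4V and the comparison between ventricles, 16 remained past the threshold in the same direction, 8 did not pass and 7 had the opposite sign. In LV, *Igtp* and *Irgm2* were then lower with the Cre-Tat label (-0.94 and -1.11, adjusted p = 2.51e-08 and 3.33e-11), *Gbp4* was at -0.01, and *Gbp2* (0.26), *Ifitm10* (0.32) and *Ifi27l2a* (0.02) did not pass. In 4V, *Gbp4* was lower (-0.67, adjusted p = 3.97e-05), *Gbp9* was at -0.05, and *Iigp1* (0.02), *Ifit2* (0.23) and *Ifi27l2a* (0.00) did not pass. *Gbp2b*, *Irgm1*, *Ifit1* and *Ifi30* remained higher in both ventricles. None of the 4 calls between the ventricles passed (-0.18 to -0.04). The results below rest on the join by library number.

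**Figure D1:**
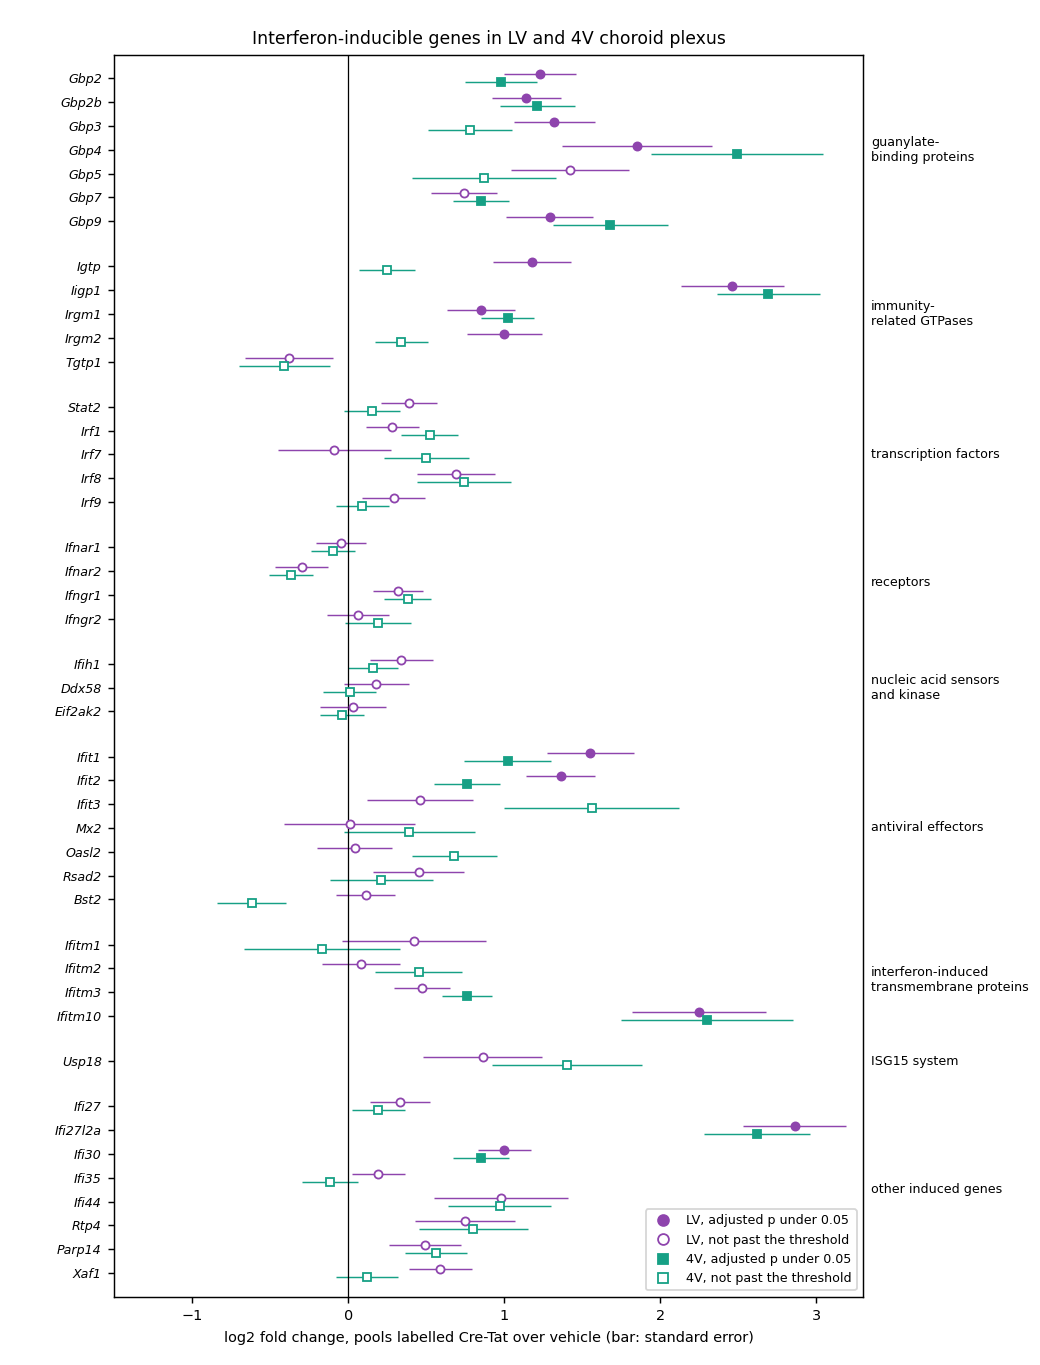
Log2 fold change of each tested member, pools labelled Cre-Tat over vehicle, with its standard error, in LV (circles) and 4V (squares) ChP, grouped by role; filled symbols passed an adjusted p under 0.05. Filled symbols sit among the guanylate-binding proteins, the immunity-related GTPases, the Ifit and Ifitm genes, *Ifi27l2a* and *Ifi30*, while the receptors and sensors lie near 0.

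The members called in both ventricles were 11: *Gbp2*, *Gbp2b*, *Gbp4*, *Gbp9*, *Iigp1*, *Irgm1*, *Ifit1*, *Ifit2*, *Ifitm10*, *Ifi27l2a* and *Ifi30*. *Gbp3*, *Igtp* and *Irgm2* passed in LV and not in 4V, and *Gbp7* and *Ifitm3* in 4V and not in LV. The difference between ventricles was tested as an interaction of label and ventricle over 8 pools. It passed for 0 of 48 members (edgeR, 0.00643% of all genes), and for 0 with DESeq2. Unadjusted edgeR p-values were under 0.05 for 3 members and for 415 of 15552 genes. Values below are for pool A and then pool B, and log2 fold changes are given ± SE.

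Guanylate-binding proteins are large GTPases induced above all by interferon gamma, which assemble on the vacuoles of intracellular microbes. Mouse members lie in clusters on chromosomes 3 (*Gbp2*, *Gbp2b*, *Gbp3*, *Gbp5*, *Gbp7*) and 5 (*Gbp4*, *Gbp9*). All 7 measured had a positive fold change in both ventricles, and 5 of 7 passed in each. *Gbp2* was 215 and 337 in the LV pools labelled Cre-Tat against 109 and 126 in vehicle (1.23 ± 0.23, adjusted p = 0.00994), and 180 and 232 against 83.6 and 128 in 4V (0.98 ± 0.23, adjusted p = 0.00995). *Gbp2b*, its neighbour on chromosome 3, was 220 and 329 against 118 and 132 in LV (1.14 ± 0.22, adjusted p = 0.0119) and 160 and 201 against 64.1 and 93.7 in 4V (1.21 ± 0.24, adjusted p = 0.00294). The groups did not overlap for either gene in either ventricle. The call of *Gbp2b* held without any pool and that of *Gbp2* in 4V was lost without vehicle pool A (0.70, adjusted p = 0.123) or with the sum over transcripts (adjusted p = 0.0547).

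*Gbp4* showed the largest fold of the family and also the widest spread. It was 41.5 and 135 against 19.7 and 29.0 in LV (1.85 ± 0.48, adjusted p = 0.0496) and 44.9 and 192 against 13.9 and 29.5 in 4V (2.49 ± 0.55, adjusted p = 0.00609). Pool B labelled Cre-Tat was more than 2 times pool A in both ventricles, and without that pool the change was 0.78 in LV and 1.09 in 4V (adjusted p = 0.504 and 0.206). Without pool A labelled Cre-Tat it was 2.49 and 3.17, and without 4V vehicle pool B it was 3.08. The LV call was also lost with DESeq2 size factors, all groups in 1 fit, a mean count above 10, the sum over transcripts or total counts (adjusted p = 0.0607 to 0.128), and the 4V call with DESeq2 (adjusted p = 0.185). *Gbp9*, which overlaps *Gbp4* on chromosome 5, was 96.6 and 95.7 against 37.7 and 41.1 in LV (1.29 ± 0.28, adjusted p = 0.0219) and 60.2 and 94.6 against 18.1 and 31.2 in 4V (1.68 ± 0.37, adjusted p = 0.0064), with no overlap. Its call was lost in LV without Cre-Tat pool A (adjusted p = 0.0634) or vehicle pool A (0.077) or with the sum over transcripts (0.0633), and in 4V without Cre-Tat pool B (0.0517). Of the 50-base stretches of *Gbp4* and *Gbp9*, 12.8% and 9.56% also occur in other genes of the family, so reads can be shared.

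*Gbp3* was 501 and 428 against 120 and 254 in LV (1.32 ± 0.26, adjusted p = 0.0138) and 200 and 210 against 75.2 and 168 in 4V (0.78 ± 0.27, adjusted p = 0.0719). Vehicle pool B was more than 2 times pool A in both ventricles; without vehicle pool A the LV change was 0.87 (adjusted p = 0.0617) and without pool B it was 1.95. *Gbp7*, the member of the family with the most reads, was 774 and 679 against 330 and 541 in LV (0.74 ± 0.21, adjusted p = 0.0775) and 437 and 562 against 249 and 307 in 4V (0.85 ± 0.18, adjusted p = 0.00374). The groups of *Gbp3* and *Gbp7* did not overlap in either ventricle. *Gbp5* did not pass the test, with 1.42 in LV (adjusted p = 0.0603) and 0.87 in 4V (adjusted p = 0.283).

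Immunity-related GTPases are a second interferon-induced family, of which *Iigp1* and *Tgtp1* encode proteins that attack vacuoles and *Irgm1*, *Irgm2* and *Igtp* encode their regulators at host membranes. *Iigp1* showed the largest rise of the family, to 519 and 457 against 44.0 and 135 in LV (2.46 ± 0.33, 5.49-fold, adjusted p = 0.000848) and to 268 and 414 against 25.1 and 85.1 in 4V (2.69 ± 0.33, 6.47-fold, adjusted p = 3.79e-05). The lowest pool labelled Cre-Tat was above the highest vehicle pool in both ventricles, and the call held without any pool, although the size depended on the vehicle pools. In LV it was 1.85 without vehicle pool A and 3.47 without vehicle pool B, and in 4V 2.02 and 3.76. *Irgm1* was 749 and 642 against 287 and 486 in LV (0.85 ± 0.22, adjusted p = 0.0482) and 501 and 500 against 226 and 271 in 4V (1.02 ± 0.17, adjusted p = 0.000499). Its LV call was lost without Cre-Tat pool A (0.75, adjusted p = 0.108) or vehicle pool A (0.51, adjusted p = 0.567), whereas its 4V call held without any pool. The LV call was also lost with DESeq2 size factors, a mean count above 10 or the sum over transcripts (adjusted p = 0.0559 to 0.0692).

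*Igtp* and *Irgm2*, whose promoters are nearly alike, were higher with the Cre-Tat label in LV. *Igtp* was 148 and 219 against 70.9 and 91.6 (1.18 ± 0.25, adjusted p = 0.0204), and *Irgm2* was 205 and 305 against 102 and 152 (1.00 ± 0.24, adjusted p = 0.0388), with no overlap between groups. Both calls were lost without Cre-Tat pool B (0.88 and 0.70, adjusted p = 0.0909 and 0.159) or vehicle pool A (0.99 and 0.74, adjusted p = 0.0563 and 0.216), and that of *Irgm2* also with DESeq2 size factors (adjusted p = 0.0514) or the sum over transcripts (adjusted p = 0.0615). In 4V the change was smaller and did not pass, with 224 and 250 against 208 and 191 for *Igtp* (0.25 ± 0.18) and 377 and 418 against 293 and 340 for *Irgm2* (0.34 ± 0.17). The interaction with ventricle was 0.92 ± 0.31 for *Igtp* (unadjusted p = 0.00985) and 0.67 ± 0.31 for *Irgm2* (unadjusted p = 0.0496), and neither passed after adjustment (edgeR adjusted p = 1.0). The annotated gene *Irgm2* starts within *Igtp*, and 162 bases of the counted *Igtp* transcript overlap exons of *Irgm2*. The counted *Irgm2* transcript itself overlaps no exon of *Igtp*. Of the 50-base stretches of *Igtp*, 12.3% occur in *Irgm2*, and 5.84% of those of *Irgm2* occur in *Igtp*. Reads can therefore be shared, and these are not independent measurements. *Tgtp1* was the only GTPase with a negative fold change, with 122 and 72.4 against 109 and 145 in LV (-0.38 ± 0.28) and 61.2 and 53.9 against 87.8 and 64.2 in 4V (-0.41 ± 0.29), and passed in neither ventricle. Of its stretches, 91.4% occur in other genes, mostly *Tgtp2* (89.4%), so its count is uncertain.

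**Figure D2:**
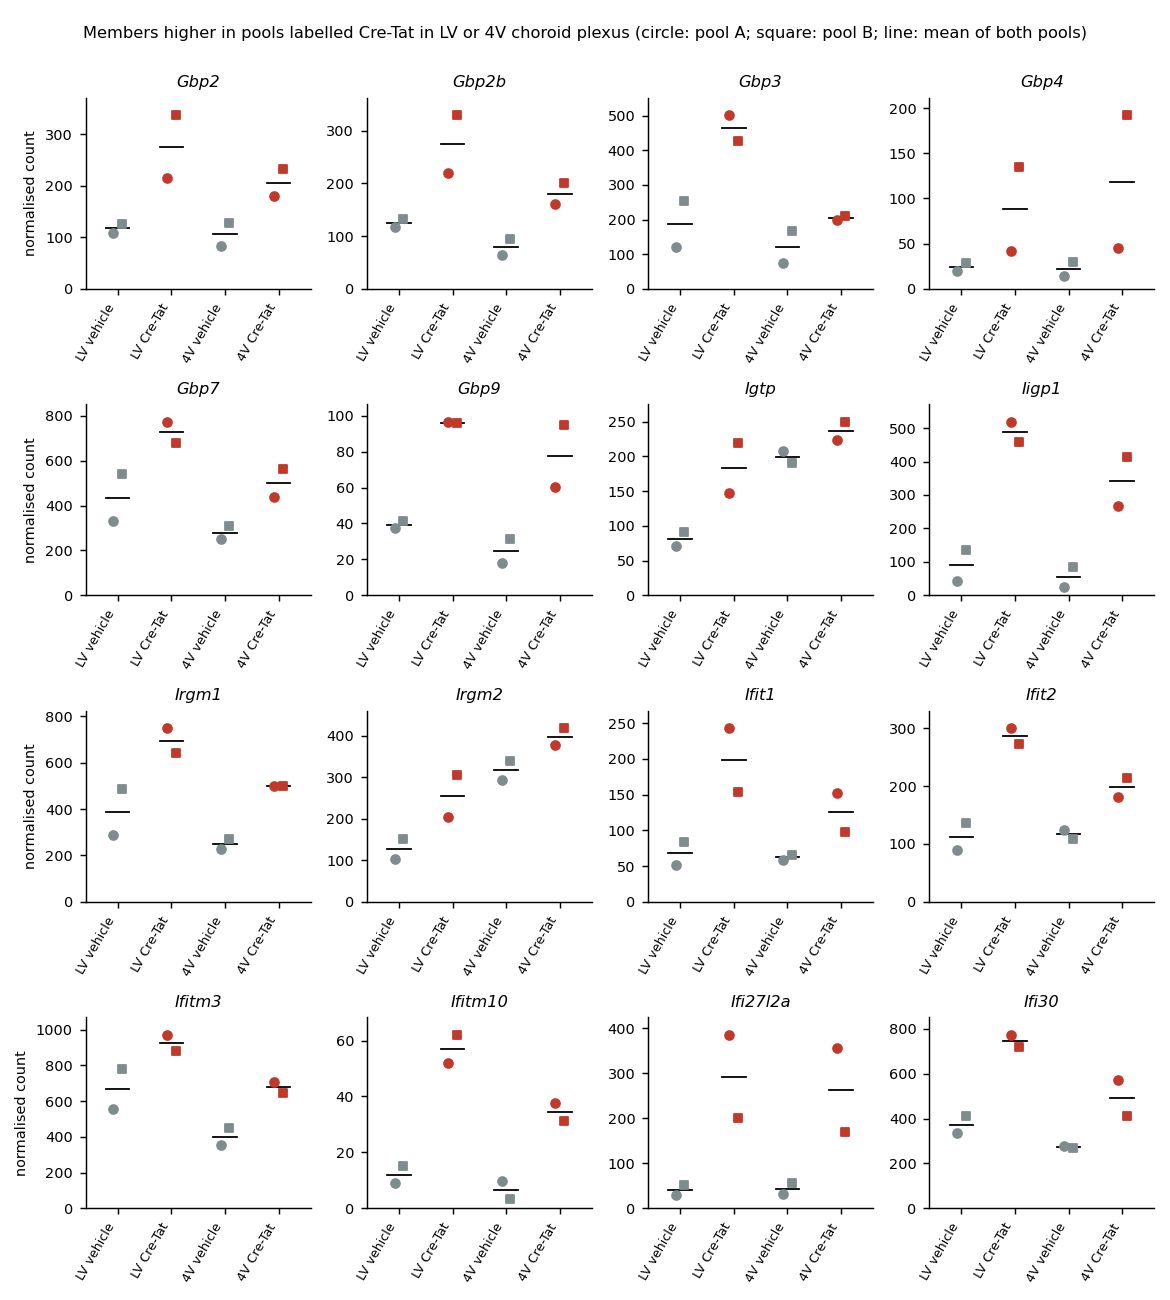
Normalised count in each LV and 4V pool (circle, pool A; square, pool B; line, mean of both) of the 16 members higher with the Cre-Tat label in LV or 4V ChP. In the panel of *Iigp1* the lowest pool labelled Cre-Tat (268 in 4V) lies above the highest vehicle pool (135 in LV), while in the panel of *Gbp4* pool B labelled Cre-Tat stands apart from pool A.

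Antiviral effectors act on the viral life cycle, and of the 10 members of this role 7 could be tested and *Ifit1* and *Ifit2*, which encode RNA-binding inhibitors of translation, rose in both ventricles. *Ifit1* was 243 and 154 against 52.1 and 84.1 in LV (1.55 ± 0.28, adjusted p = 0.0081) and 153 and 98.4 against 58.5 and 66.0 in 4V (1.02 ± 0.28, adjusted p = 0.0244). *Ifit2* was 300 and 273 against 88.9 and 136 in LV (1.36 ± 0.22, adjusted p = 0.00362) and 182 and 214 against 124 and 109 in 4V (0.76 ± 0.21, adjusted p = 0.0225). No groups overlapped, and the LV call of *Ifit2* held without any pool. That of *Ifit1* was lost in LV without Cre-Tat pool A (1.20, adjusted p = 0.0591), and in 4V without Cre-Tat pool A (0.66, adjusted p = 0.232) or vehicle pool A (0.94, adjusted p = 0.0827). The 4V call of *Ifit2* was lost without Cre-Tat pool B (0.65, adjusted p = 0.0915) or vehicle pool B (0.67, adjusted p = 0.109), and both 4V calls, of *Ifit1* and *Ifit2*, were lost with DESeq2 (adjusted p = 0.0682 and 0.0791), all groups in 1 fit (0.0719 and 0.054) or the sum over transcripts (0.0844 and 0.0545).

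The other 5 tested effectors, *Ifit3*, *Mx2*, *Oasl2*, *Rsad2* (viperin) and *Bst2* (tetherin), did not pass, with log2 fold changes of 0.01 to 0.46 in LV and -0.62 to 1.56 in 4V. *Bst2*, at -0.62 in 4V (adjusted p = 0.0784), was the member with the most negative value there. *Isg15*, whose product is attached to proteins as a ubiquitin-like tag, had 2 to 10 counts in the 7 conditional pools where it was seen and 0 in 4V vehicle pool B. *Usp18*, which removes that tag, had 0.86 in LV (adjusted p = 0.32) and 1.40 in 4V (adjusted p = 0.0789). At these counts a change of *Isg15*, *Mx1*, *Oas1a*, *Oas2* or *Zbp1* was not detectable.

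Interferon-induced transmembrane proteins sit in plasma and endosomal membranes, and IFITM3 blocks the fusion of viruses there. *Ifitm3* was 972 and 879 against 556 and 782 in LV (0.47 ± 0.18, adjusted p = 0.229) and 709 and 645 against 352 and 451 in 4V (0.76 ± 0.16, adjusted p = 0.00392), with no overlap in either ventricle. Its 4V call was lost without vehicle pool A (0.60, adjusted p = 0.0792). *Ifitm10*, a low member of the family, was 52.1 and 62.1 against 8.97 and 15 in LV (2.25 ± 0.43, 4.75-fold, adjusted p = 0.0101) and 37.7 and 31.2 against 9.75 and 3.47 in 4V (2.30 ± 0.55, adjusted p = 0.0104). It was placed here by its name, and its promoter windows held neither element searched. In 4V its vehicle counts were 7 and 2, so it entered that test through the pools labelled Cre-Tat alone and had to differ. No pools overlapped and the LV call held without any pool, but in 4V vehicle pool B had 2 counts, and the call was lost without that pool (1.81, adjusted p = 0.0801) or without Cre-Tat pool A (2.15, adjusted p = 0.0508). Without 4V vehicle pool A the change was 3.27. *Ifitm10* overlaps *Gm49369*, which shares 15.1% of its 50-base stretches, so its reads can belong to either. *Ifitm1* and *Ifitm2* did not pass in either ventricle (-0.17 to 0.45).

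Of the 8 other induced genes, *Ifi27l2a* and *Ifi30* rose in both ventricles. *Ifi27l2a* showed the largest fold of all members in LV, with 386 and 200 against 28.7 and 52.3 (2.86 ± 0.33, 7.26-fold, adjusted p = 0.000256), and was 357 and 169 against 32.0 and 55.6 in 4V (2.62 ± 0.34, 6.14-fold, adjusted p = 6.6e-05). Cre-Tat pool A was the highest in both ventricles, no pools overlapped, and the call held without any pool; without 4V Cre-Tat pool A the change was 1.97. *Ifi30* encodes a lysosomal thiol reductase that opens disulfide bonds of antigens for presentation on MHC class II. It was 774 and 721 against 334 and 413 in LV (1.00 ± 0.17, adjusted p = 0.00512; 0.85 without vehicle pool A, adjusted p = 0.072) and 571 and 412 against 279 and 267 in 4V (0.85 ± 0.18, adjusted p = 0.00492), without overlap. *Ifi27*, *Ifi35*, *Ifi44*, *Rtp4*, *Parp14* and *Xaf1* did not pass, with 0.19 to 0.98 in LV and -0.12 to 0.97 in 4V.

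The 5 transcription factors of the response did not pass in either ventricle, with -0.09 to 0.69 in LV and 0.09 to 0.74 in 4V. *Irf1*, a primary target of interferon gamma, was 362 and 373 against 293 and 313 in LV (0.28 ± 0.17, adjusted p = 0.526) and 347 and 361 against 214 and 281 in 4V (0.52 ± 0.18, adjusted p = 0.0699), without overlap. *Irf8*, a factor of macrophages and dendritic cells, was 110 and 116 against 67.3 and 72.9 in LV (0.69 ± 0.25, adjusted p = 0.176) and 81.6 and 65.3 against 43.2 and 45.1 in 4V (0.74 ± 0.30, adjusted p = 0.153), again without overlap. *Irf7*, *Irf9* and *Stat2* gave -0.09 to 0.39 in LV and 0.09 to 0.50 in 4V. The RNA sensors *Ifih1* (MDA5) and *Ddx58* (RIG-I) and the kinase *Eif2ak2* (PKR) gave 0.03 to 0.34 in LV and -0.04 to 0.16 in 4V, and the pools of all 3 overlapped in both ventricles.

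Of the 4 receptor genes none passed in either ventricle. *Ifnar1* was 824 and 721 against 775 and 830 in LV (-0.05 ± 0.16) and 765 and 672 against 734 and 811 in 4V (-0.10 ± 0.14), with overlap in both. *Ifnar2* was 1458 and 1936 against 2186 and 1994 in LV (-0.30 ± 0.17, adjusted p = 0.508) and 1284 and 1248 against 1808 and 1469 in 4V (-0.37 ± 0.14, adjusted p = 0.113), below vehicle without overlap in both. *Ifngr1* was 619 and 594 against 451 and 521 in LV (0.32 ± 0.16, adjusted p = 0.412) and 587 and 545 against 464 and 408 in 4V (0.38 ± 0.15, adjusted p = 0.136), above vehicle without overlap. *Ifngr2*, the least counted receptor, was 174 and 207 against 173 and 193 in LV (0.06 ± 0.20) and 167 and 141 against 142 and 128 in 4V (0.19 ± 0.21; pools overlapped in both).

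**Figure D3:**
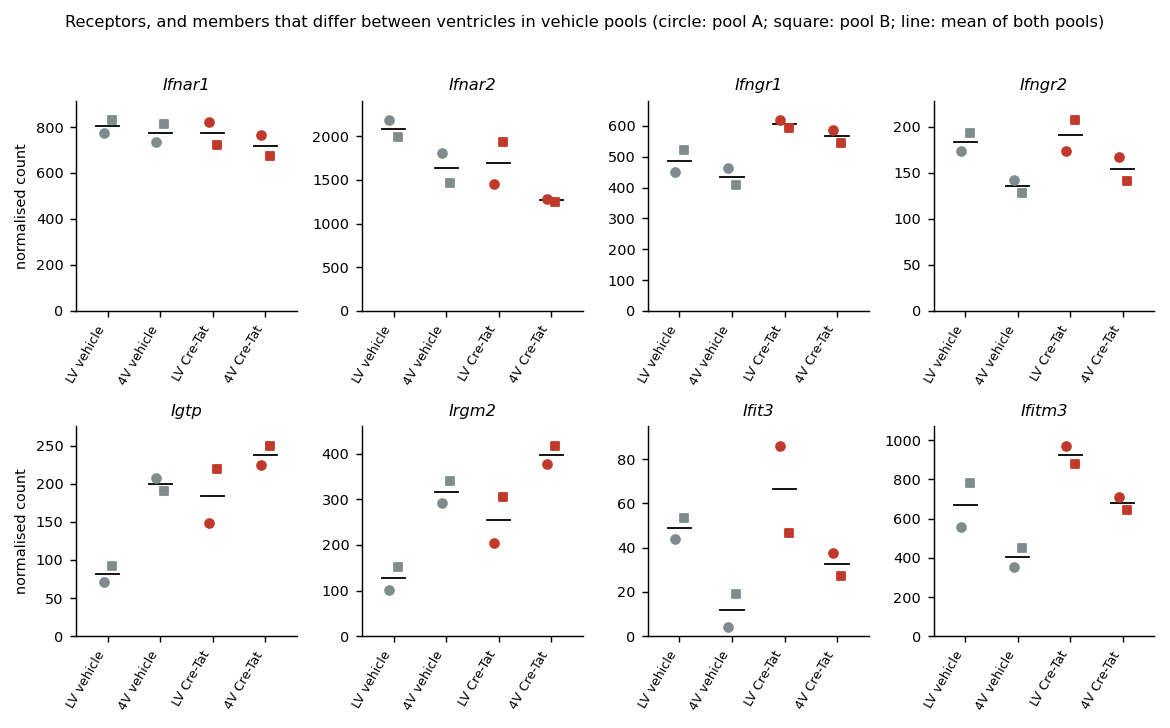
Normalised count in each LV and 4V pool (circle, pool A; square, pool B; line, mean) of the 4 receptor genes and of the 4 members that differed between the ventricles in vehicle pools. Receptor values stay within 128 to 2186, with *Ifnar2* the highest, and *Igtp* and *Irgm2* are lower in LV than in 4V vehicle pools.

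The wider pathway was read from a list of 81 other genes, 1 of which was not analysed here. The 11 interferon genes on it were close to absent: *Ifng* alone had any count, with 5 in all pools together and at most 1 in a pool, so no ligand could be tested. In LV, 4 of 56 tested genes of the list (7.14%, against 2.21% of all genes) were higher and 0 lower (*Parp12*, *Slfn2* and *Nlrc5* among them), with a median log2 fold change of 0.44. In 4V, 8 of 51 (15.7%, against 5.7% of all genes) were higher and 0 lower (*Mavs*, *Tlr3*, *Ifit1bl1*, *Parp12*, *Trim30a*, *Ly6e* and *Nlrc5* among them), with a median of 0.28. *Nlrc5*, the activator of MHC class I genes, was 72.5 and 93.1 against 17.9 and 15.9 in LV (2.28 ± 0.35, adjusted p = 0.00233) and 69.3 and 91.8 against 30.6 and 33.0 in 4V (1.35 ± 0.32, adjusted p = 0.0106). The pools of *Nlrc5* did not overlap in either ventricle.

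Summed marker lists of macrophages, T cells and dendritic cells were higher in the pools labelled Cre-Tat. The NK cell sum was not, and only 1 of its 6 markers had enough counts to be tested. The summed normalised count of 12 macrophage and microglia markers was 3475 and 2928 in the LV pools labelled Cre-Tat against 1651 and 1926 in vehicle, and 3180 and 2229 against 1401 and 1335 in 4V. All 12 lay above vehicle without overlap in both ventricles (22.0% of all genes in LV and 25.5% in 4V). Of them, 5 passed in LV and 8 in 4V, where 2.21% and 5.7% of all genes were higher. *Ptprc*, which marks all leukocytes, was at 1.36 ± 0.22 and 1.60 ± 0.21. The 9 T cell markers summed to 221 and 138 against 47 and 44 in LV and to 145 and 87 against 36 and 45 in 4V. *Cd3e*, *Cd8a*, *Cd6* and *Cd5* were at 3 counts or fewer in the vehicle pools of both ventricles. Of the T cell markers tested, 2 of 5 passed in LV and 0 of 4 in 4V. Those 2, *Cd3g* and *Cd6*, were under the filter in vehicle. They entered the LV test through the pools labelled Cre-Tat alone and had to differ. The 6 NK cell markers summed to 18 and 13 against 39 and 31 in LV and to 15 and 40 against 29 and 43 in 4V. The 7 B and plasma cell markers summed to 1357 and 289 against 246 and 288 in LV and to 491 and 207 against 167 and 148 in 4V. Only 2 of them could be tested. *Jchain* was 1116 and 85.4 against 4.49 and 60.7 in LV and 341 and 85.2 against 1.39 and 5.21 in 4V. *Sdc1* did not pass and lay below vehicle, at 189 and 185 against 234 and 213 in LV and 126 and 98.4 against 155 and 137 in 4V. The 6 neutrophil markers reached 336 in 4V Cre-Tat pool A and at most 17 in the other conditional pools. Dendritic cell markers summed to 226 and 141 against 89 and 126 in LV and to 183 and 119 against 45 and 45 in 4V. Of those tested, 0 of 4 passed in LV and 3 of 3 in 4V, where 2.21% and 5.7% of all genes were higher. In 4V vehicle pools *Flt3* and *Cd209a* were at 3 counts or fewer. They entered the 4V test through the pools labelled Cre-Tat alone and had to differ. In LV *Siglech* overlapped vehicle, at 111 and 73.3 against 57.4 and 99.1. Ependymal markers were 1.65 and 1.85 times vehicle in LV and 4V, a sum made mostly of *Foxj1* (0.80 ± 0.16 and 0.98 ± 0.14), the single member called. Of the 3 ependymal markers tested, 1 had a negative fold change in each ventricle (-0.18 and -0.61). Erythroid markers, none of which could be tested, summed to 2 and 172 against 9 and 3 in LV and to 16 and 34 against 10 and 7 in 4V. Neuron and glia markers were 1.22 and 0.935 times vehicle, with 1 of 5 tested higher in each ventricle and 1 lower in 4V. Endothelial markers were 1.11 and 1.02 times vehicle. Fibroblast markers were 0.931 and 0.916 times vehicle, with *Col1a2* higher (1.64 ± 0.17 and 1.57 ± 0.15) and *Pdgfra* lower (-0.87 ± 0.16 and -1.33 ± 0.13). Epithelial markers were 0.639 and 0.464 times vehicle, a sum made mostly of *Ttr*. Of the 10, 3 were lower in LV and 9 in 4V (1.03% and 4.99% of all genes), and *Otx2* was higher in both. The part of these cells in the rise of the members was not tested, and in bulk tissue fewer cells of a type and less RNA per cell cannot be told apart.

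**Figure D4:**
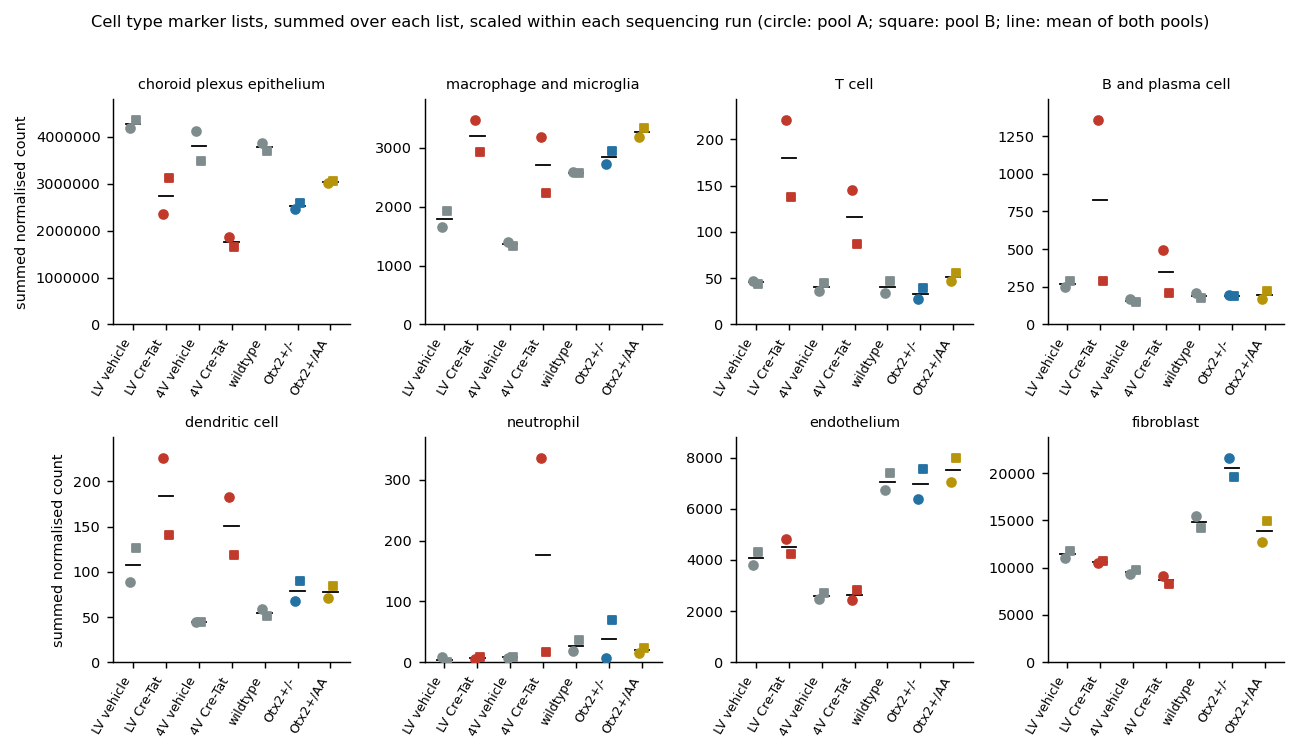
Summed normalised count of 8 cell type marker lists in each pool of both models (circle, pool A; square, pool B; line, mean), scaled within each run. Macrophage and T cell sums are higher in all pools labelled Cre-Tat than in vehicle pools of the same ventricle, epithelial sums are lower, and endothelial sums are close to those of vehicle.

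Vehicle pools show where the members stand without recombinase. Per kilobase of transcript, *Ifi27* was the highest member in both ventricles, at 4960 ± 1200 normalised counts per kilobase in LV and 4520 ± 185 in 4V (SD, n = 2). It was followed by *Ifitm3* (987 ± 236 and 593 ± 103) and *Ifnar2* (686 ± 44.5 and 538 ± 78.7). *Ifi27* lay apart from the others by more than this spread, whereas *Ifitm3* and *Ifnar2* did not differ beyond it in 4V. With the Cre-Tat label *Ifi27* was 6651 and 5308 normalised counts against 3954 and 5593 in LV and 5963 and 3947 against 4230 and 4482 in 4V, with overlap in both.

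Between the ventricles, vehicle pools differed in 4 of 43 tested members (2 higher and 2 lower in LV, where 3.49% of all genes were higher and 4.0% lower, 7.49% in either direction); these are the vehicle pools of the comparisons above. *Igtp* was 70.9 and 91.6 in LV against 208 and 191 in 4V (-1.30 ± 0.22, adjusted p = 0.00264), and *Irgm2* was 102 and 152 against 293 and 340 (-1.32 ± 0.20, adjusted p = 0.00152). Both were lower in LV without overlap, and both calls held without any pool. *Ifit3* was 44.0 and 53.3 against 4.18 and 19.1 (2.12 ± 0.54, adjusted p = 0.0318), where 4V vehicle pool A had 3 counts; without that pool it was 1.35 (adjusted p = 0.172) and without 4V vehicle pool B 3.49, and 51.2% of its stretches also occur in *Ifit3b*. *Ifitm3* was 556 and 782 against 352 and 451 (0.73 ± 0.17, adjusted p = 0.0211), a call lost without LV vehicle pool B (0.49, adjusted p = 0.111) or 4V vehicle pool A (0.57, adjusted p = 0.141). Neither *Ifit3* nor *Ifitm3* passed with scaling by total counts. The count of members higher in LV depended on the vehicle pool left out, and the count over all genes changed in the same direction.

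Vehicle pools of the same ventricle were also not alike. In LV, pool B was above pool A for 42 of 44 members with a mean of at least 10 (55.3% of all genes), and by more than 2 times for *Gbp3*, *Iigp1*, *Irf7*, *Usp18*, *Ifi44* and *Rtp4*. In 4V, pool B was above pool A for 28 of 44. In the pools labelled Cre-Tat pool B was the higher for 18 of 45 members in LV and 19 of 46 in 4V. Labels do not say whether pool letters of LV and 4V stand for the same mice.

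In the constitutive model, 46 members were tested in *Otx2+/-* against wildtype, and 1 was higher and 2 lower, where 1.79% of all genes were higher and 1.74% lower (3.53% in either direction). The median log2 fold change was 0.28 (-0.000716 over all genes). Pools of *Otx2+/-* lay above wildtype without overlap for 17 members (23.8% of all genes) and below for 5 (25.4%). *Ifit2* was 277 and 236 in *Otx2+/-* against 120 and 122 in wildtype (1.08 ± 0.17, adjusted p = 0.0119), and was the single member called higher. *Tgtp1* was 64.0 and 57.0 against 203 and 191 (-1.70 ± 0.19, 3.26-fold lower, adjusted p = 0.00245), a count shared in large part with *Tgtp2*. The receptor gene *Ifnar2* was 1403 and 1536 against 2336 and 2427 (-0.70 ± 0.11, adjusted p = 0.0122), and it overlaps *Gm21970*, which shares 8.87% of its stretches. These 3 groups did not overlap, and the 3 calls held without any pool.

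The count of members higher in *Otx2+/-* depended on single pools. In *Otx2+/-*, pool A was above pool B for all but 9 of 47 members and by more than 2 times for 11 of them, where 0.944% of all genes were. In wildtype, pool A was likewise above pool B for all but 11 of 45 members, and by more than 2 times for 1. The 11 members more than 2 times higher in *Otx2+/-* pool A were *Gbp3*, *Irf7*, *Ifit1*, *Ifit3*, *Oas1a*, *Bst2*, *Usp18*, *Ifi27l2a*, *Ifi44*, *Rtp4* and *Xaf1*. *Ifit1* was 989 in pool A and 122 in pool B, against 124 and 103 in wildtype (2.29 ± 0.75, adjusted p = 0.149), so that pool A alone stood apart. *Usp18* was 172 and 56.0 against 31.3 and 28.6 (1.93 ± 0.49, adjusted p = 0.078), and *Oasl2* 384 and 206 against 172 and 137 (0.93 ± 0.28, adjusted p = 0.122), both without overlap. Without *Otx2+/-* pool B, wildtype pool A or wildtype pool B more members were called higher, and so were more of all genes. Macrophage markers summed to 2734 and 2942 in *Otx2+/-* against 2586 and 2573 in wildtype, and T cell markers to 27 and 39 against 34 and 47. The epithelial sum was 0.668 times wildtype, mostly *Ttr* (-0.78 ± 0.17, adjusted p = 0.0397). The median of the 10 epithelial markers was -0.24, with 3 lower (1.74% of all genes) and *Otx2* higher. The part of any of these in the results was not tested.

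**Figure D5:**
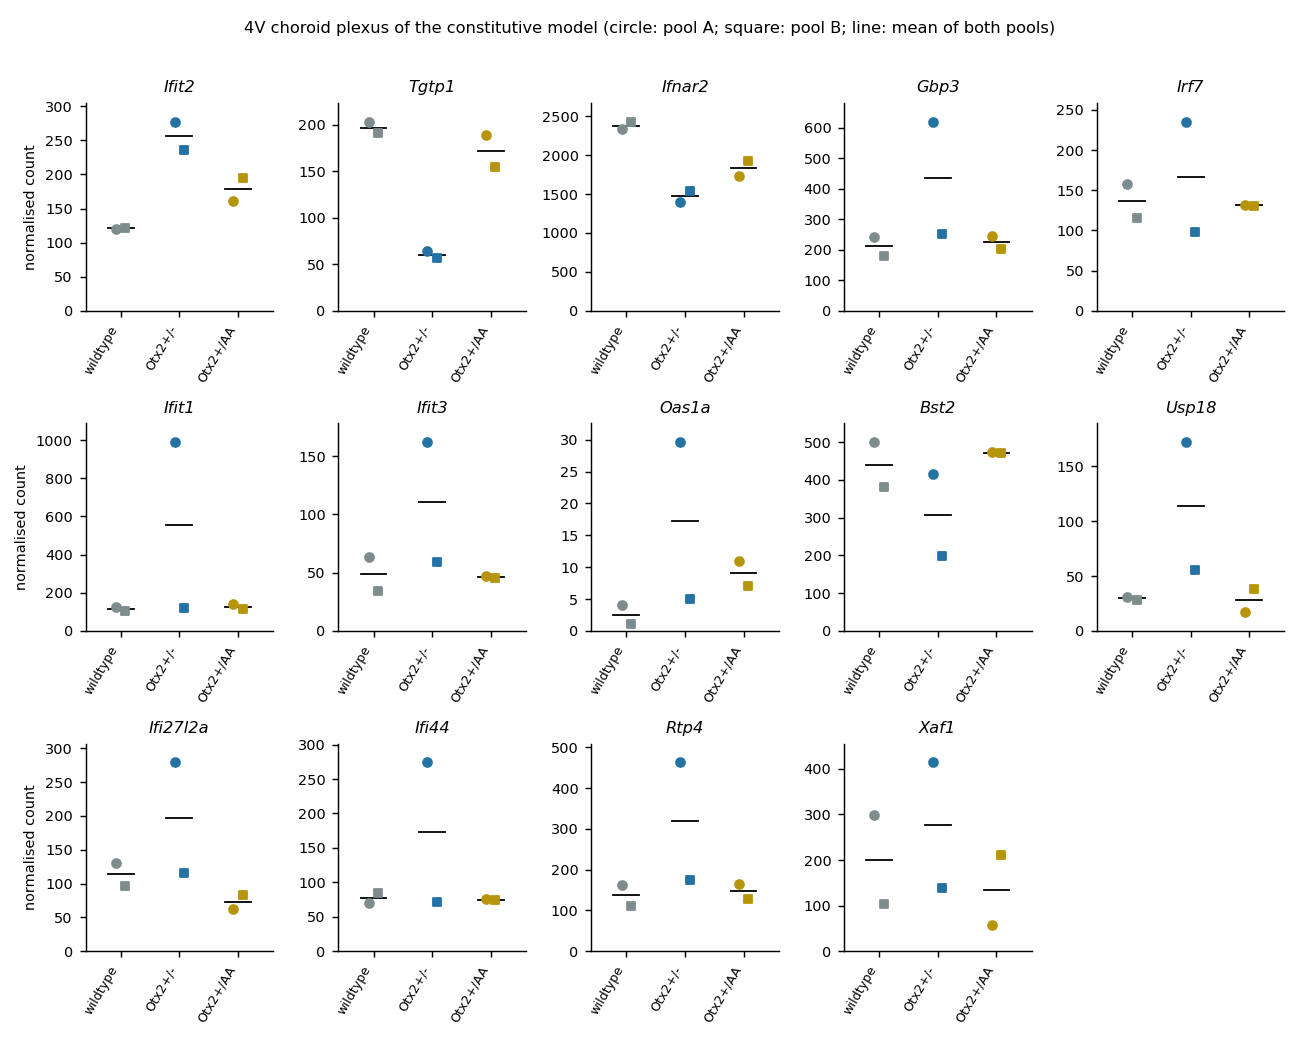
Normalised count in each 4V pool of wildtype, *Otx2+/-* and *Otx2+/AA* (circle, pool A; square, pool B; line, mean) of the 3 members called in *Otx2+/-* and of the 11 members more than 2 times higher in its pool A than in its pool B. *Ifit2*, *Tgtp1* and *Ifnar2* separate *Otx2+/-* from wildtype in both pools, whereas *Ifit1* is 989 in pool A alone.

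*Otx2+/AA* was compared with the same wildtype pools. None of 45 tested members passed with edgeR (0.173% of all genes were higher and 0.173% lower, 0.345% in either direction), and DESeq2 gave 0. With edgeR 5 members had an unadjusted p under 0.05, as had 1289 of 14482 genes. The median log2 fold change was 0.01, and both pools lay above wildtype for 7 members (18.7% of all genes) and below for 6 (19.4%). *Ifit2* was 161 and 195 against 120 and 122 (0.54 ± 0.20, adjusted p = 0.396). *Tgtp1* was 189 and 155 against 203 and 191, and *Ifnar2* was 1734 and 1927 against 2336 and 2427 (-0.39 ± 0.13, adjusted p = 0.299). The values of *Ifnar2* lay between those of *Otx2+/-* and wildtype in both pools. The calls changed without wildtype pool B, for members and for all genes. Macrophage markers summed to 3190 and 3340 in *Otx2+/AA*, above the wildtype pools, and the median of the epithelial markers was -0.12, with none past the threshold (edgeR).

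In the constitutive model, few genes of the wider pathway list passed. In *Otx2+/-*, 1 gene of 56 tested (*Tor3a*) was higher and 1 lower, a share near the 1.79% and 1.74% of all genes. In *Otx2+/AA*, 0 of 55 passed with edgeR at an adjusted p under 0.05. There 9 had an unadjusted p under 0.05, as had 1289 of 14482 genes. *Tor3a*, an interferon-responsive member of the torsin family, was 3202 and 3543 in *Otx2+/-* against 1678 and 1585 in wildtype (1.05 ± 0.12, adjusted p = 0.00217).

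Whether the 4V response differed between the models was tested as an interaction over 8 pools. It passed for 1 of 48 members (1.61% of all genes, 0.784% higher and 0.829% lower). Unadjusted edgeR p-values were under 0.05 for 11 members and for 1983 of 15314 genes. *Iigp1* was higher by 2.69 ± 0.33 with the Cre-Tat label and was 324 and 230 in *Otx2+/-* against 260 and 180 in wildtype. The interaction was 2.35 ± 0.52 (adjusted p = 0.0399). It was 1.67 without 4V vehicle pool A (adjusted p = 0.174), 3.43 without 4V vehicle pool B, and it also did not pass without Cre-Tat pool B (2.02, adjusted p = 0.11), *Otx2+/-* pool B (2.12, adjusted p = 0.0642) or wildtype pool A (2.07, adjusted p = 0.12), or with the sum over transcripts (2.33, adjusted p = 0.104) or DESeq2 (adjusted p = 0.199), which called 1 other member. *Ifi30* was next, at 1.12 ± 0.27 (adjusted p = 0.058), and was 417 and 315 in *Otx2+/-* against 477 and 411 in wildtype. *Gbp2b* was tested (1.28 ± 0.87, adjusted p = 0.58), although it had 64.1 to 329 normalised counts in the pools of strain S129 and 1.83 to 6.06 in those of strain B6D2, too few for a test of *Otx2+/-* alone. These runs were scaled apart, and strain and run cannot be told apart. The count of members with a different response changed with the pool left out, and so did the count over all genes.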

How the data were processed

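RNA of pooled ChP was sequenced with a strand-specific kit as 50-base reads. The deposited files hold the authors' raw counts per transcript (per the labels, mm10; the submitters' processing notes name bcl2fastq 1.8.4, Bowtie 0.12.9, SAMtools, HTSeq 0.5.3 and DESeq 1.8.3). The labels name Ribo-Zero depletion, whereas the study's methods name poly(A) selection. Of 95533 transcripts, 82807 (89.5% of counts) matched a gene of GENCODE vM21, which gave 33964 genes, each read from its most counted transcript. No column of sample values was left unused. The 2 runs of a conditional pool were summed by library number. The members and lists were chosen with earlier results of these data known.

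Counts over genes were 10555040 to 24826597 per pool. Each comparison was fitted on its own pools across all genes that passed edgeR's filter (14482 to 14990 in the comparisons of groups), with TMM scaling and the quasi-likelihood test of edgeR 4.0.16 in R 4.3.3, and p-values were adjusted over all genes tested by Benjamini-Hochberg at 0.05. Exact permutation of 2 against 2 pools cannot go below 0.333 and was not used. Scripts were tested on simulated data. Values in every pool were given for members past the threshold in any comparison or interaction, the 4 receptors, and the 3 members with the highest level per transcript length in each ventricle of the vehicle pools; others are given by range and count. Some genes of the wider pathway list are not reported here. *Irf1*, *Irf8*, *Gbp5*, *Bst2*, *Isg15*, *Usp18*, *Oasl2*, *Xaf1* and the members that differed between the *Otx2+/-* pools fall outside this rule and were named after their values were seen. Shared stretches are 50-base windows of a transcript that occur in another gene's transcripts. Promoters are those of RefSeq. Alternatives were the files as attached, no filter, a mean count above 10, DESeq2 1.42.0 (test and size factors), total counts, all groups of a run in 1 fit, the sum over transcripts, the pool letter as a block, and each pool left out.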

Additional observations from a re-analysis of the deposited data

Results flagged for a closer look

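*Iigp1* was the single member of 48 past the threshold when the 4V response was compared between the models, where 1.61% of all genes passed. The interaction of knockdown label and model in 4V ChP was 2.35 ± 0.52 on the log2 scale (edgeR, adjusted p = 0.0399), with the 4V pools labelled Cre-Tat at 268 and 414 normalised counts against 25.1 and 85.1 in vehicle, and *Otx2+/-* at 324 and 230 against 260 and 180 in wildtype. Strain, sequencing run and model cannot be told apart here. The call was lost without each of 4 pools of 8 and with DESeq2, the replicate block or the sum over transcripts (adjusted p = 0.05 to 0.199).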

How the results depend on the processing

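With files joined by library number, no called member's log2 fold change reversed; of 423 recomputed values 367 stayed past the threshold and 56 did not. With the files as attached, 7 of 31 reversed: in LV *Gbp4* (-0.01), *Igtp* (-0.94) and *Irgm2* (-1.11), in 4V *Gbp4* (-0.67) and *Gbp9* (-0.05), and between ventricles *Ifit3* (-0.05) and *Ifitm3* (-0.04). Of 158 recomputed counts of members 122 stayed within 1.5 times. With the files as attached, LV gave 22 members higher and 2 lower, 4V 23 and 7, and the vehicle pools of LV against 4V 5 and 10. Over all genes that join gave 3388 of 14943 higher and 3317 lower in LV. It gave 4360 of 14845 higher and 4381 lower in 4V, and 2283 of 14442 higher and 2432 lower between ventricles. Without a filter, 4V gave 20 higher and 1 lower, LV against 4V 6 higher, and the interaction with model 8. With total counts, 4V gave 20 higher, *Otx2+/-* 2, LV against 4V 0 and the interaction with model 3; with DESeq2, *Otx2+/-* gave 3 higher and LV against 4V 1; summed over transcripts, the interaction with model gave 0. With the pool letter as a replicate block, 4V gave 21 higher and 2 lower, *Otx2+/-* 17 higher, *Otx2+/AA* 1 lower, LV against 4V 8 higher and LV 18. The same block called 1571 of 14537 genes higher and 1546 lower in 4V. It called 1302 of 14561 higher in *Otx2+/-*, 290 of 14482 lower in *Otx2+/AA*, 1048 of 14548 higher in LV against 4V and 427 of 14990 in LV. The interaction of *Iigp1* with model then had an adjusted p of 0.05 (edgeR), not past the threshold. The letters are not given as shared mice, and deviations of same-lettered pools correlated at -0.13 in LV, 0.15 in 4V, 0.36 for *Otx2+/-*, 0.077 for *Otx2+/AA* and 0.075 between ventricles. With the letters crossed in LV, an alternative chosen after seeing the data, 20 were higher. Leaving out each pool in turn gave 8 to 18 higher and 0 to 0 lower in LV, 10 to 17 and 0 to 1 in 4V (1 lower without Cre-Tat pool A), 1 to 14 and 2 to 3 for *Otx2+/-*, 0 to 1 and 0 to 1 for *Otx2+/AA*, 0 to 12 and 2 to 2 between ventricles, 0 to 0 for the interaction with ventricle and 0 to 3 for that with model. The count over all genes changed with the pool left out as well. With 2 pools a group, members with few counts limit what could be detected.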

Other observations

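*Xaf1* varied between pools of every group of the constitutive model, at 414 and 138 normalised counts in *Otx2+/-*, 298 and 103 in wildtype and 56.6 and 210 in *Otx2+/AA*. In vehicle pools of the conditional model, pool B was above pool A in both ventricles for 26 of 43 members.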
